A study of Homo sapiens with 7 samples.

Results

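Glycolysis, glycogen and hypoxia-response genes were followed in human cardiomyocytes after treatment with an antisense oligonucleotide (ASO) to MYH7B. An ASO is a synthetic strand that binds a matching RNA. The set was a list of 41 gene symbols covering glucose transporters, the glycolytic enzymes, lactate and pyruvate handling, glycogen enzymes, and hypoxia factors with some of their targets. All 41 were among the 60234 genes of the deposited table, and all 41 reached the mean of 1 TPM, a length-adjusted share of a library's transcripts, needed to be tested, as did 15988 genes in all. The cells were of the WTC-11 induced pluripotent stem cell line, an established line, differentiated with small molecules and matured for 35 days. Every culture then received an ASO at 2 uM for 96 h by passive uptake, a scrambled ASO in 3 libraries and the MYH7B ASO in 4. The deposited values of MYH7B ASO replicate 1 are out of row order, so the main comparison used scrambled ASO replicates 1, 2 and 3 and MYH7B ASO replicates 2, 3 and 4. No label says that the libraries of a group came from separate differentiations, so p-values measure only the spread between these libraries, which all come from a single cell line.

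Glycolysis splits glucose into pyruvate in the cytosol. Pyruvate either becomes lactate or enters mitochondria, where pyruvate dehydrogenase feeds it to oxidation and the pyruvate dehydrogenase kinases shut that enzyme off. Fetal-stage heart muscle, which stem cell cardiomyocytes resemble, draws heavily on glycolysis, and adult heart muscle mainly on fatty acids. When oxygen is short, the hypoxia-inducible factors HIF-1 alpha (HIF1A) and HIF-2 alpha (EPAS1) are stabilised as proteins and switch on genes. Those switched on by HIF-1 alpha include many glycolytic genes and PDK1.

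The target checked the labels first. MYH7B (chromosome 20, 34975403 to 35002437 in GENCODE 29 on GRCh38) was at 23.0, 36.5 and 25.1 TPM in scrambled ASO replicates 1 to 3 and at 9.30, 5.65 and 6.31 TPM in MYH7B ASO replicates 2 to 4. Its log2 difference was -1.85 (SE 0.24, limma adjusted p = 0.0109). The limma call was lost without MYH7B ASO replicate 4 (adjusted p = 0.0618), with no filter on low values (0.0779) and with 7 libraries (0.0525), where the log2 difference was -1.79, -1.85 and -2.30. TPM sum to the same total in each library, so the sequencing depth of each library is unknown. RNA from the mitochondrial genome was 27.4% to 33.2% of TPM in control libraries and 31.2% to 33.6% in MYH7B ASO replicates 2 to 4. The 12 cardiomyocyte markers summed to between 10930 and 12060 TPM with the scrambled ASO. In MYH7B ASO replicates 2 to 4 they summed to between 9112 and 11450 TPM. Pluripotency markers summed to under 5 TPM in every one of the 6 libraries. Of the cardiomyocyte markers, ACTN2, MYL7, TNNI3, PLN and RYR2 were lower and TNNI1 higher without overlap, with none called by limma. RYR2, the calcium release channel, averaged 34.1 and 16.3 TPM in the 2 groups. The 10 fibroblast markers were all detected. Of these, 6 were lower and 2, TCF21 and PDGFRA, were higher without overlap, and limma called 2 lower. The sum of the 10 ran from 2922 to 5267 TPM with the scrambled ASO and from 1373 to 2109 TPM in MYH7B ASO replicates 2 to 4. COL1A1, COL3A1 and COL1A2 made up most of it. The sum of 6 smooth muscle markers ran from 962 to 1361 and from 576 to 752 TPM in the same libraries. Of the 6, 4 were lower without overlap and 1 was called lower by limma. Over all tested genes, 14.1% were lower and 7.11% higher without overlap, and limma called 1.48% lower. The part of these marker differences in the results below was not tested. In bulk RNA, fewer cells of a type and less RNA per cell cannot be told apart.

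Promoters are shown for the members on which the results turn, because HIF proteins bind a short core written ACGTG or GCGTG. The 250 bases before each gene's RefSeq start were searched for both cores on both strands, and 35 of the 41 members had a window. Sequences are from RefSeq on GRCh38.p14, 5′ to 3′ on the gene's strand, and stop where an annotated untranslated exon begins. Capitals mark a core or its reverse complement, and the letters CACGTG, which is also the E-box of other factors, hold a core on each strand. PGAM2, the member called by limma, has 1 core in 230 bases (chr7:44065588-44065817, minus strand). PDK1, with the largest difference, has none before its most 5′ start (chr2:172555123-172555372, plus strand), and 2 before its other listed start, which are not printed. EPAS1 has 1 core in 245 bases (chr2:46297157-46297401, plus strand). PFKFB3 has 1 in 250 before its most 5′ start (chr10:6144671-6144920, plus strand), and 2 before its other listed start, which are not printed. BNIP3, whose groups overlapped, has 6 in 160 bases (chr10:131982014-131982173, minus strand).
PGAM2: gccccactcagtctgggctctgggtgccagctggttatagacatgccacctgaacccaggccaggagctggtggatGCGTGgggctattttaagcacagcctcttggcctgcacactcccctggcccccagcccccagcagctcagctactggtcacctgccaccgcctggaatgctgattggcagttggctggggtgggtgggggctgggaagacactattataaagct
PDK1: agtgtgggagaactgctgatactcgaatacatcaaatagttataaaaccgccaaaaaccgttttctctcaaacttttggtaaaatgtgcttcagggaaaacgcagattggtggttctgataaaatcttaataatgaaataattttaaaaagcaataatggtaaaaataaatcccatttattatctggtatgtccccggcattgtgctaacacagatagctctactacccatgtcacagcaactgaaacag
EPAS1: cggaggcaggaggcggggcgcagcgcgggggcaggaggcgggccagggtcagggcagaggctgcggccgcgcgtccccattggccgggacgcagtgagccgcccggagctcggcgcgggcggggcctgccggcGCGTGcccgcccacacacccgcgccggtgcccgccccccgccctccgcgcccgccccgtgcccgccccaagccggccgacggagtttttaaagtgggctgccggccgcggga
PFKFB3: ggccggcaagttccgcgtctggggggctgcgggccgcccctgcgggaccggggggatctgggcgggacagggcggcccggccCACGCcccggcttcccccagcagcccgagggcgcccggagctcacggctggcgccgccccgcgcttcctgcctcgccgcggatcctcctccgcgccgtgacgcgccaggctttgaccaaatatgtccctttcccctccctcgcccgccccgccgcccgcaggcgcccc
BNIP3: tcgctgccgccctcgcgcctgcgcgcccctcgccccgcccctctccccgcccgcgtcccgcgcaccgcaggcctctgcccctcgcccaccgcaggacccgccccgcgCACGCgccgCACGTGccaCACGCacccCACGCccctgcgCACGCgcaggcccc
A core was present before the most 5′ start of 23 of the 35 members (65.7%), against 43.1% of 27305 genes with windows of the same length. Counting every listed start, it was 30 of 35 members (85.7%) and 47.4% of genes. The 27305 genes outnumber the 15988 tested. They were not matched to the members in expression, base composition or number of listed starts, and the difference in share was not tested. By direction, a core before the most 5′ start was found for 11 of the 16 members that lay higher in all 3 MYH7B ASO libraries, 2 of the 3 that lay lower, and 10 of the 16 whose groups overlapped. A match is a description of letters and not a binding site.

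The glycolytic part of the list lay higher with the MYH7B ASO in most members, while the kinase PDK1 and the hypoxia factor EPAS1 lay lower. Across all genes, 265 of 15988 were called by limma at an adjusted p under 0.05, or 1.66%, split into 29 higher (0.181%) and 236 lower (1.48%). Of the 41 members, 1 was called, PGAM2, which rose. At an unadjusted p under 0.05, 15 members were higher and 3 lower, or 36.6% and 7.32%, against 4.67% and 10.6% of all genes. The 3 libraries of each group did not overlap for 18 members that were higher (43.9%, against 7.11% of all genes) and for 3 that were lower (7.32%, against 14.1%). In either direction this was 21 of 41 members, against 21.2% of all genes. The median log2 difference was 0.26 over the members and -0.04 over all tested genes, and 30 of the 41 differences were above 0 (73.2%, against 45.2%). In the authors' deposited table, 10 members had an adjusted p-value under 0.05 and were higher, and 2 were lower. These are 24.4% and 4.88% of the members, against 3.02% and 5.69% of the genes with an adjusted p-value there, of which 8.71% passed in either direction. That table was made from the same experiment and is no independent evidence.

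**Figure D1:**
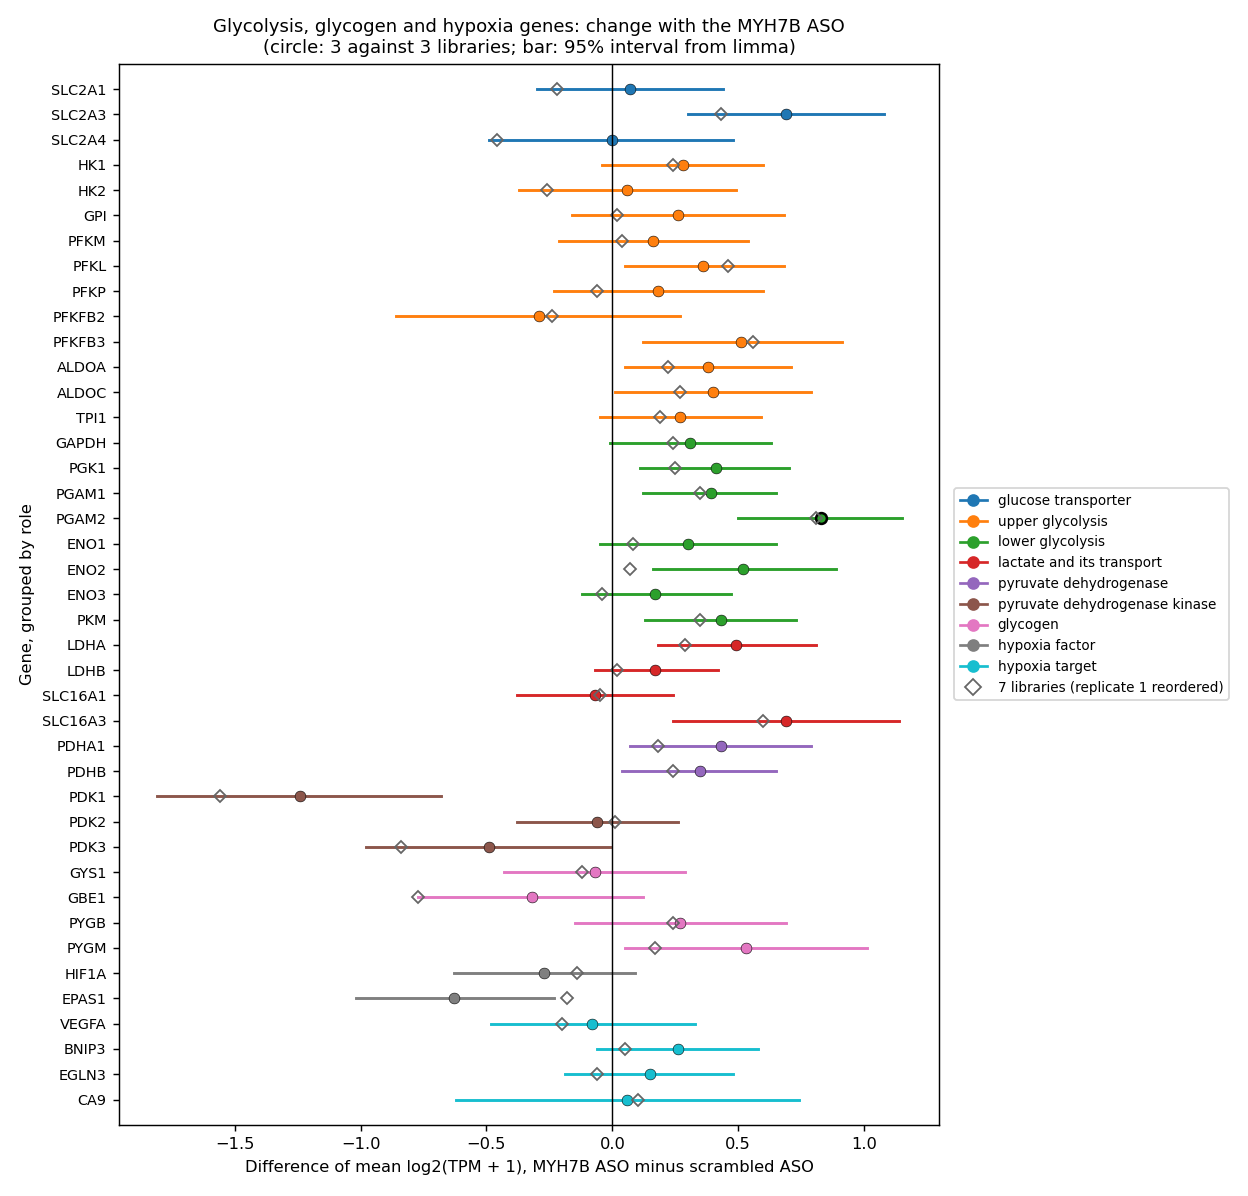
Difference of mean log2(TPM + 1), MYH7B ASO minus scrambled ASO, for the 41 genes by role. Circles with bars give the 3 against 3 comparison with its 95% interval from limma, the heavy outline marks PGAM2, the single called gene, and open diamonds give the comparison of 7 libraries; most glycolytic genes lie right of 0 and PDK1 lies farthest left at -1.24.

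Together the 41 genes took 1.70%, 2.08% and 1.74% of all TPM in scrambled ASO replicates 1 to 3, and 2.57%, 2.06% and 2.21% in MYH7B ASO replicates 2 to 4. These sums overlapped, since MYH7B ASO replicate 3 lay just below scrambled ASO replicate 2. The libraries within a group were not alike for these genes. Among the scrambled ASO libraries, replicate 2 was the highest for 27 of the 41 members (65.9%, against 27.3% of all tested genes). Among MYH7B ASO replicates 2 to 4, replicate 2 was the highest for 31 members (75.6%, against 47.6%) and replicate 3 the lowest for 25 (61.0%, against 24.1%). The members share these libraries and are not separate replicates of the treatment.

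**Figure D2:**
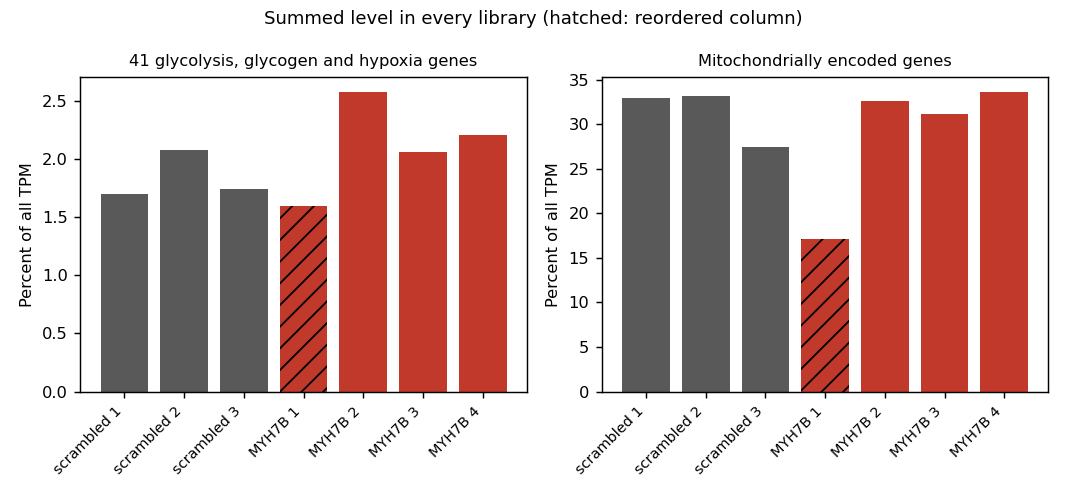
Percent of all TPM in each of the 7 libraries, summed over the 41 genes (left) and over mitochondrially encoded genes (right); grey bars are scrambled ASO, red bars MYH7B ASO, and the hatched bar is the reordered column of replicate 1. The 41 genes took 1.70% to 2.08% with the scrambled ASO and 2.06% to 2.57% in MYH7B ASO replicates 2 to 4, and mitochondrial genes were at 17.2% in the reordered column.

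Glucose enters through the SLC2A transporters. SLC2A1, the widespread basal transporter, was the most abundant of the 3, at 361.5 ± 50.2 TPM in control and 381 ± 65.9 TPM in MYH7B ASO libraries (SD, n = 3 each). Its log2 difference of 0.07 had a 95% interval from -0.30 to 0.44, so changes within those bounds could not be told from none. SLC2A3, a high-affinity transporter (chromosome 12, 7919230 to 7936275), was at 53.6, 75.2 and 64.8 TPM in scrambled ASO replicates 1 to 3. In MYH7B ASO replicates 2 to 4 it was at 121, 99.9 and 92.7 TPM. All 3 MYH7B ASO libraries lay above the highest scrambled ASO library, a log2 difference of 0.69 with a standard error of 0.17 that was not called (limma adjusted p = 0.0987). In the authors' deposited table SLC2A3 was called higher at 0.69 on the log2 scale (adjusted p-value 1.81e-04). SLC2A4, the insulin-responsive transporter of muscle and fat, was at 18.7 ± 4.44 and 18.5 ± 2.97 TPM (SD, n = 3 each). The log2 ratio of SLC2A3 to SLC2A1 went from -2.49 ± 0.14 to -1.86 ± 0.11 (SD, n = 3 each) with no overlap (2-sided exact permutation p = 0.1, the smallest that 3 against 3 libraries can give).

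Upper glycolysis runs from hexokinase to triose phosphate isomerase. Of its 11 members 10 had a difference above 0 (90.9%, against 45.2% of all genes). For 5 the groups did not overlap, all higher (45.5%, against 7.11%). None was called, while 4 were higher at an unadjusted p under 0.05 (36.4%, against 4.67%). HK1, the widely expressed hexokinase, was at 108 ± 14.8 and 130.1 ± 7.04 TPM (SD, n = 3 each), and HK2, the inducible form, at 41.3 ± 10.4 and 42.4 ± 2.46 TPM (SD, n = 3 each). Both overlapped between groups. Phosphofructokinase commits sugar to glycolysis, and its platelet-type subunit PFKP was the most abundant of the 3 at 290.5 ± 54.8 TPM (SD, n = 3) in control cells. The muscle subunit PFKM followed at 157 ± 25.2 TPM (SD, n = 3) and the liver subunit PFKL at 55.2 ± 1.98 TPM (SD, n = 3). Only PFKL of these subunits had groups that did not overlap. It was at 53.2, 57.2 and 55.2 TPM in scrambled ASO replicates 1 to 3 and at 80.2, 70.4 and 64.2 TPM in MYH7B ASO replicates 2 to 4 (log2 difference 0.36, limma adjusted p = 0.257), and it was called higher in the authors' deposited table (adjusted p-value 0.0159).

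PFKFB3 and PFKFB2 make fructose 2,6-bisphosphate, the activator of phosphofructokinase. PFKFB3 (chromosome 10, 6144934 to 6254644) was at 14.4, 20.7 and 19.3 TPM in scrambled ASO replicates 1 to 3 and at 25.0, 26.7 and 26.5 TPM in MYH7B ASO replicates 2 to 4. The groups did not overlap, and the log2 difference of 0.51 had a standard error of 0.17 (limma adjusted p = 0.206). In the authors' deposited table it was called higher, with an adjusted p-value of 0.0149. PFKFB2, the form abundant in adult heart, was low at 4.71 ± 1.27 and 3.59 ± 0.58 TPM (SD, n = 3 each) and overlapped. The log2 ratio of PFKFB2 to PFKFB3 was -1.34, -2.01 and -2.55 in the scrambled ASO libraries and -2.63, -3.18 and -2.80 in MYH7B ASO replicates 2 to 4. The aldolases ALDOA and ALDOC, which split fructose 1,6-bisphosphate, kept nearly the same log2 ratio to each other, -3.29 ± 0.11 and -3.26 ± 0.07 (SD, n = 3 each, ALDOC to ALDOA). Both were higher in all 3 MYH7B ASO libraries, by 0.38 and 0.40 on the log2 scale (limma adjusted p = 0.266 and 0.315). The ALDOC difference was 0.22 when scrambled ASO replicate 1 was left out.

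Lower glycolysis held the one called member and the most abundant enzyme. All 8 of its genes had differences above 0, against 45.2% of all genes, and their median log2 difference was 0.40, against -0.04. For 6 the groups did not overlap, all higher (75%, against 7.11% of all genes). PGAM2, the muscle form of phosphoglycerate mutase (chromosome 7, 44062727 to 44065587), was at 66.2, 57.9 and 61.2 TPM in scrambled ASO replicates 1 to 3. In MYH7B ASO replicates 2 to 4 it was at 127, 98.5 and 107 TPM. The lowest of these lay well above the highest control library, and the mean rose from 61.8 ± 4.16 to 111 ± 14.7 TPM (SD, n = 3 each), 1.79-fold. The log2 difference was 0.83 (SE 0.14, limma adjusted p = 0.0316). PGAM2 was also called in the authors' deposited table, at 0.82 (adjusted p-value 6.12e-06). Significance by limma was lost when any single library was left out (adjusted p from 0.0699 to 0.125, log2 difference from 0.72 to 0.91), and also with no filter on low values or no intensity trend (0.0944 and 0.0943). The gene overlaps DBNL on the other strand, which was at 29.4 and 36.5 TPM on average in the 2 groups. The authors' counting is not stated to use strand, so reads in the overlap cannot be assigned with certainty.

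PGAM1, the non-muscle mutase, was more abundant at 356 ± 6.36 and 466 ± 38.6 TPM (SD, n = 3 each) and did not overlap between groups (log2 difference 0.39, limma adjusted p = 0.158). The log2 ratio of PGAM2 to PGAM1 was -2.40, -2.61 and -2.57 with the scrambled ASO and -2.0, -2.21 and -2.02 in MYH7B ASO replicates 2 to 4. It thus differed by 0.45 without overlap, so the muscle form was a larger share of the mutase RNA than in control, though PGAM1 stayed the more abundant in every library. ENO2, the neuronal enolase (chromosome 12, 6913745 to 6923698), was at 85.8, 73.8 and 71.8 TPM in scrambled ASO replicates 1 to 3. In MYH7B ASO replicates 2 to 4 it was at 134, 98.7 and 104 TPM, above every control library (log2 difference 0.52, SE 0.16, limma adjusted p = 0.165). ENO3, the muscle enolase, showed a smaller difference of 0.17, which was 0.07 without MYH7B ASO replicate 2, and the abundant ENO1 overlapped at 2472 ± 373 and 3037 ± 443 TPM (SD, n = 3 each). GAPDH, often used as a reference gene, had the highest level of all 41 members at 6064 ± 759 TPM in control and 7523 ± 978 TPM in MYH7B ASO libraries (SD, n = 3 each). Its log2 difference was 0.31, with an interval from -0.01 to 0.63. GAPDH has 62 named pseudogenes and BNIP3 39, which together held 2.20 and 3.01 TPM on average and could have taken or given reads. The ATP-yielding enzymes PGK1 and PKM were higher in all 3 MYH7B ASO libraries, by 0.41 and 0.43 on the log2 scale, and both were called in the authors' deposited table (adjusted p-values 0.00457 and 0.0174) but not by limma (adjusted p = 0.182 and 0.168).

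**Figure D3:**
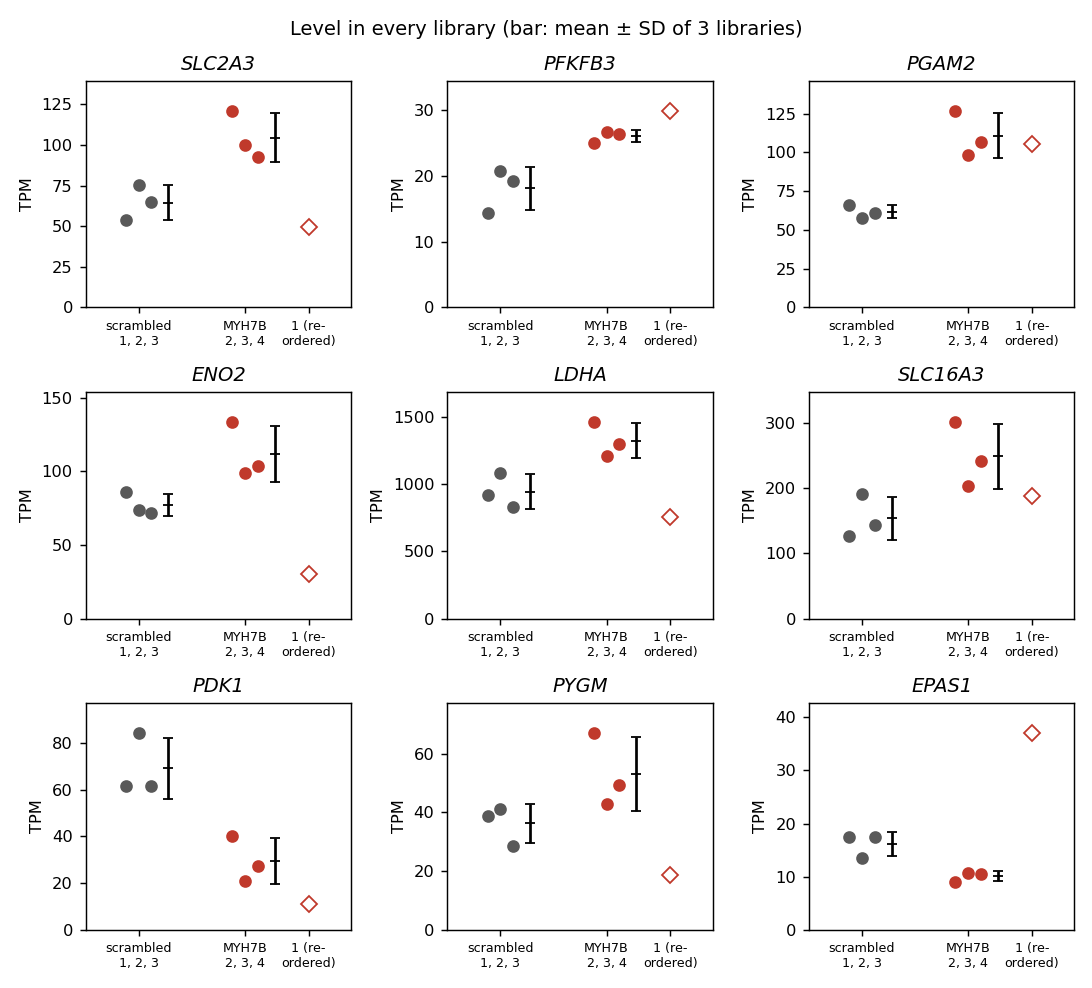
TPM of 9 genes in every library, with filled points for the 3 libraries of each group in replicate order, bars for their mean ± SD, and an open diamond for the reordered column of MYH7B ASO replicate 1. PGAM2 and PFKFB3 are high and PDK1 low in all 4 MYH7B ASO columns, whereas the diamond lies among or below the control libraries for SLC2A3, ENO2, LDHA, SLC16A3 and PYGM and above them for EPAS1.

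Lactate dehydrogenase converts pyruvate and lactate into each other, LDHA being the muscle subunit and LDHB the heart subunit. LDHA was at 920, 1084 and 830 TPM in scrambled ASO replicates 1 to 3 and at 1465, 1212 and 1296 TPM in MYH7B ASO replicates 2 to 4. No library of either group crossed into the other, and the log2 difference was 0.49 (SE 0.14, limma adjusted p = 0.143, adjusted p-value 0.0127 in the authors' deposited table). LDHB was at 924.5 ± 8.11 and 1046 ± 80.5 TPM (SD, n = 3 each), also without overlap. The log2 ratio of LDHB to LDHA was 0.02, -0.24 and 0.16 with the scrambled ASO and -0.36, -0.27 and -0.39 in MYH7B ASO replicates 2 to 4, a difference of -0.32. Lactate leaves the cell through monocarboxylate transporters. SLC16A3, the exporter of strongly glycolytic cells (chromosome 17, 82228397 to 82261129), was at 127, 191 and 144 TPM in scrambled ASO replicates 1 to 3 and at 301.5, 203 and 241 TPM in MYH7B ASO replicates 2 to 4. The lowest MYH7B ASO library lay only slightly above the highest control, and the log2 difference of 0.69 had a standard error of 0.20 (limma adjusted p = 0.15, adjusted p-value 0.00308 in the authors' deposited table). SLC16A1, the more general carrier, was at 81.5 ± 8.46 and 77.3 ± 4.33 TPM (SD, n = 3 each). Its interval ran from -0.38 to 0.24 on the log2 scale.

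At the entry of pyruvate into mitochondria, the 2 enzyme subunits on the list lay higher without overlap (100%, against 7.11% of all genes). Of the 3 kinases on the list, 2 lay lower without overlap (66.7%, against 14.1% of all genes). The pyruvate dehydrogenase subunits PDHA1 and PDHB were higher in all 3 MYH7B ASO libraries, by 0.43 and 0.35 on the log2 scale, and neither was called (limma adjusted p = 0.244 and 0.268). PDK1 (chromosome 2, 172555373 to 172608669), a kinase that inactivates pyruvate dehydrogenase, was at 61.3, 84.3 and 61.7 TPM in scrambled ASO replicates 1 to 3. In MYH7B ASO replicates 2 to 4 it was at 40.1, 20.7 and 27.1 TPM. Every MYH7B ASO library lay below every control, the largest difference among the 41 members at -1.24 on the log2 scale with a standard error of 0.25. The limma adjusted p was 0.0501, just above the threshold. It was 0.0442 with a pseudocount of 0.1, 0.0231 over genes of at least 5 TPM and 0.0401 without MYH7B ASO replicate 2, and between 0.0580 and 0.198 under the other alternatives without a replicate block. In the authors' deposited table PDK1 was called lower at -0.98 on the log2 scale (adjusted p-value 2.06e-05). PDK3 was low, at 6.51, 7.39 and 6.5 TPM in control libraries and at 5.05, 3.39 and 5.38 TPM in MYH7B ASO replicates 2 to 4, a difference of -0.49 (limma adjusted p = 0.319). PDK2 was at 51.5 ± 4.26 and 49.5 ± 4.5 TPM (SD, n = 3 each) and overlapped. PDK1 exceeded PDK2 in each scrambled ASO library (log2 ratio 0.18, 0.85 and 0.20) and was below it in each of MYH7B ASO replicates 2 to 4 (-0.18, -1.39 and -0.85).

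Glycogen members lay in both directions. PYGM, the muscle glycogen phosphorylase that releases glucose units (chromosome 11, 64746389 to 64760297), was at 38.9, 41.1 and 28.7 TPM in scrambled ASO replicates 1 to 3 and at 67.1, 42.7 and 49.4 TPM in MYH7B ASO replicates 2 to 4. Its groups were separated by less than 2 TPM, and the log2 difference of 0.53 had a standard error of 0.21 (limma adjusted p = 0.282, adjusted p-value 0.0514 in the authors' deposited table). It was 0.35 without MYH7B ASO replicate 2. PYGB, the brain form, was at 53.3 ± 6.34 and 65.04 ± 14.4 TPM (SD, n = 3 each). GYS1, which extends glycogen chains, and GBE1, which branches them, had differences of -0.07 and -0.32 with overlapping groups, that of GBE1 being -0.18 without MYH7B ASO replicate 3. Of 27 further genes of glycogen metabolism, 25 were tested, with 1 called lower and none higher, and a median log2 difference of -0.12. The called gene was PHKB, the beta subunit of the kinase that activates glycogen phosphorylase. It fell from 28.9, 28.1 and 28.5 TPM in scrambled ASO replicates 1 to 3 to 13.9, 11.4 and 11 TPM in MYH7B ASO replicates 2 to 4 (log2 difference -1.18, SE 0.15, limma adjusted p = 0.0110, adjusted p-value 9.62e-10 in the authors' deposited table). At an unadjusted p under 0.05, 7 of the 25 were lower and 1 higher, or 28% and 4%, against 10.6% and 4.67% of all genes. The authors' deposited table called 5 of them lower and 1 higher, or 20% and 4%, against 5.69% and 3.02%.

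The hypoxia factors lay lower or overlapped. The 4 members listed only as hypoxia targets, VEGFA, BNIP3, EGLN3 and CA9, overlapped. Members that HIF can also switch on, among them PDK1 and glycolytic genes, were given above and did not all overlap. EPAS1 (chromosome 2, 46293667 to 46386703) was at 17.4, 13.6 and 17.5 TPM in scrambled ASO replicates 1 to 3 and at 8.99, 10.7 and 10.5 TPM in MYH7B ASO replicates 2 to 4. The groups did not overlap and the log2 difference was -0.63 (SE 0.17, limma adjusted p = 0.135, adjusted p-value 0.0230 in the authors' deposited table). The fibroblast marker sum given above was also lower in MYH7B ASO replicates 2 to 4. So was the endothelial marker sum, 11 to 13.1 TPM against 4.63 to 8.38 TPM, with 1 of 6 markers reaching a mean of 1 TPM. That marker, TEK, made up most of the sum and averaged 10.6 and 4.61 TPM in the 2 groups. No other endothelial marker averaged above 0.654 TPM in either group, and TIE1 went the other way, from 0.313 to 0.654 TPM. The part of the fibroblast and endothelial marker sums in the EPAS1 difference was not tested. HIF1A was at 93.9 ± 12.7 and 77.9 ± 10.6 TPM (SD, n = 3 each). RNA levels give no measure of HIF protein, which is controlled mainly by its breakdown. VEGFA, the vascular growth factor, was at 123 ± 8.08 and 119 ± 28.4 TPM (SD, n = 3 each), and BNIP3, a mitophagy receptor, at 141 ± 8.73 and 169 ± 23.9 TPM (SD, n = 3 each). EGLN3, an oxygen-sensing prolyl hydroxylase, was at 93.5 ± 15.4 and 103 ± 2.45 TPM (SD, n = 3 each). CA9, a carbonic anhydrase and a sensitive hypoxia marker, was low in both groups at 3.98 ± 0.57 and 4.41 ± 1.97 TPM (SD, n = 3 each), with an interval of its log2 difference from -0.62 to 0.74.

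Of 46 other hypoxia factors and targets, 44 were tested and none was called by limma. At an unadjusted p under 0.05, 3 were higher and 9 lower, or 6.82% and 20.5%, against 4.67% and 10.6% of all genes, and the median log2 difference was -0.01. The authors' deposited table called 2 higher and 7 lower, or 4.55% and 15.9%, against 3.02% and 5.69%. LOX and P4HA2, whose products modify collagen, were among the 7 and were chosen for mention after their values were seen. LOX, which cross-links collagen, was at 35.0, 29.2 and 58.3 TPM in scrambled ASO replicates 1 to 3 and at 13.5, 20.7 and 14.1 TPM in MYH7B ASO replicates 2 to 4. It was at 50.9 TPM in the reordered column of replicate 1, within the control range. The fibroblast markers COL1A1 and COL1A2, which encode collagen chains, averaged 1667 and 765 TPM with the scrambled ASO and 796.5 and 286 TPM in MYH7B ASO replicates 2 to 4, and their part in the values of LOX and P4HA2 was not tested. Both called higher in the authors' deposited table were abundant, DDIT4 at 127 and 164 TPM and MIF at 1770 and 2464 TPM on average in the 2 groups. Of 35 other genes of glycolysis and pyruvate entry, 25 were tested with none called by limma, and 17 differences were above 0. At an unadjusted p under 0.05, 2 were higher and none lower, or 8% higher, against 4.67% of all genes. The authors' deposited table called 2 higher, GALK1 and SLC2A8, and none lower, or 8% higher, against 3.02%. All 7 tested genes of the pentose phosphate pathway, which branches from glycolysis, had differences above 0, with a median of 0.10 and none at an unadjusted p under 0.05.

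Ratios within a library do not depend on scaling between libraries. Of 17 ratios between related genes, 3 were higher and 6 lower in MYH7B ASO replicates 2 to 4 with no overlap. Each was at the smallest possible exact permutation p of 0.1, and so none could pass a threshold of 0.05. Ratios of other gene pairs were not computed, so this count has no reference share, while 21.2% of all single genes did not overlap. Some of the 17 share a gene, such as SLC2A1 or PDK2, and are not separate. The higher ratios were SLC2A3 to SLC2A1, SLC16A3 to SLC16A1 and PGAM2 to PGAM1. The lower ratios were PFKFB2 to PFKFB3, LDHB to LDHA, PDK1 and PDK3 to PDK2, PYGB to PYGM, and EPAS1 to HIF1A. The largest difference was that of PDK1 to PDK2, at -1.22, and it ranged from -1.53 to -0.92 when a library was left out. The ratio of PFKFB2 to PFKFB3 differed by -0.90, but by -0.59 without scrambled ASO replicate 1, and that of PDK3 to PDK2 by -0.53, but by -0.25 without MYH7B ASO replicate 3. After quantile normalization the groups overlapped for EPAS1 to HIF1A, PDK3 to PDK2 and SLC16A3 to SLC16A1 (exact permutation p = 0.3, 0.4 and 0.2). With 7 libraries EPAS1 to HIF1A differed by -0.07 (exact permutation p = 0.857), against -0.41 with 6, and PYGB to PYGM by 0.07, against -0.27.

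**Figure D4:**
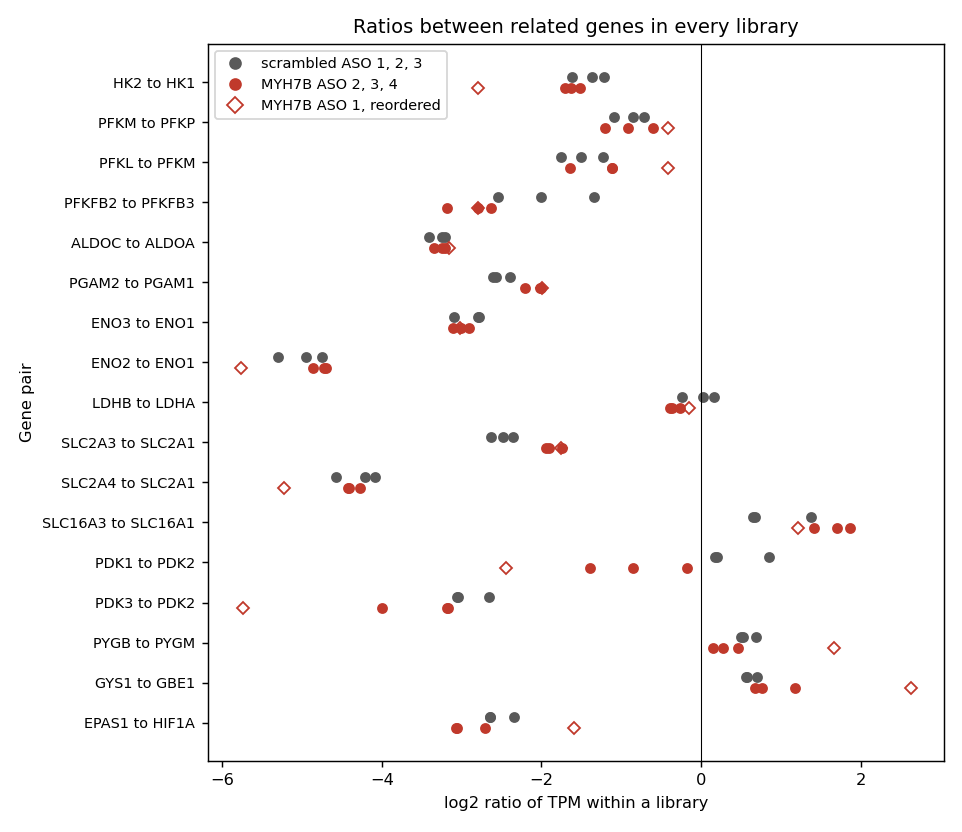
Log2 ratio of TPM between 17 pairs of related genes within each library, grey for scrambled ASO, red for MYH7B ASO replicates 2 to 4 and an open diamond for the reordered column of replicate 1. The PDK1 to PDK2 points lie above 0 in the 3 scrambled ASO libraries and below it with the MYH7B ASO, and the diamonds lie far from the red points for GYS1 to GBE1, PYGB to PYGM and PDK3 to PDK2.

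The column of MYH7B ASO replicate 1 gave a further library that the 3 against 3 comparison had not used. Its values were assigned to the sorted gene identifiers of GENCODE 29, which raised its median correlation with the other libraries, across genes, from 0.408 to 0.955. It stood apart, with mitochondrially encoded genes at 17.2% of TPM and the noncoding RNAs RN7SL1 and RN7SL2 at 14.3%, against 0.901% to 6.17% in the others. In it MYH7B was at 1.29 TPM, PDK1 at 11.1 TPM, PGAM2 at 105.5 TPM and PFKFB3 at 29.96 TPM, each beyond all 3 control libraries on the side of replicates 2 to 4. For other members it went the other way. Of the 18 members that were higher without overlap in the 3 against 3 comparison, this column lay above all control libraries for 4, within their range for 5 and below all of them for 9. LDHA was at 756 TPM, ENO2 at 30.4 TPM, SLC2A3 at 49.3 TPM and PYGM at 18.7 TPM, each below every control. EPAS1 was at 37.1 TPM, above every control. In this column the fibroblast markers summed to 4169 TPM and the smooth muscle markers to 1110 TPM, both within the control range. The cardiomyocyte markers summed to 8201 TPM, below every other library.

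With this column as a further MYH7B ASO library, the members' median log2 difference was 0.07 and that of all tested genes -0.05, and 26 of the 41 were above 0 (against 44.8% of all genes). PGAM2 was again the single member called, among 170 of 15822 genes or 1.07%, with 0.107% higher and 0.967% lower (log2 difference 0.81, limma adjusted p = 0.0439). PDK1 differed by -1.56 (limma adjusted p = 0.0927), SLC2A3 by 0.43, LDHA by 0.29, ENO2 by 0.07 and EPAS1 by -0.18. The level of this column in a given gene also depends on the annotation release and the quantification behind it, which were not tested.

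Members differed in gene span, a feature the choice of members did not use. The 3 genes that lay lower without overlap, PDK1, PDK3 and EPAS1, span 53.3, 76.6 and 93.04 kb in GENCODE 29. PGAM2 spans 2.86 kb, SLC2A3 17.05 kb, LDHA 14.04 kb and ENO2 9.95 kb. Over the 41 members the Spearman correlation of span with log2 difference was -0.40, and it was also -0.40 over the 12952 protein-coding genes tested. These are descriptions across genes of the same 6 libraries. PFKFB3 and LDHB, with annotated spans of 109.7 and 122.5 kb, were higher without overlap. The annotated spans of PGK1 and LDHB each overlap another protein-coding gene, and the RefSeq start of PGK1 lies well inside its GENCODE span, so these spans overstate the length from the main start. Over the same 41 members the mean level had a Spearman correlation of 0.44 with the log2 difference, against 0.12 over the protein-coding genes.

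**Figure D5:**
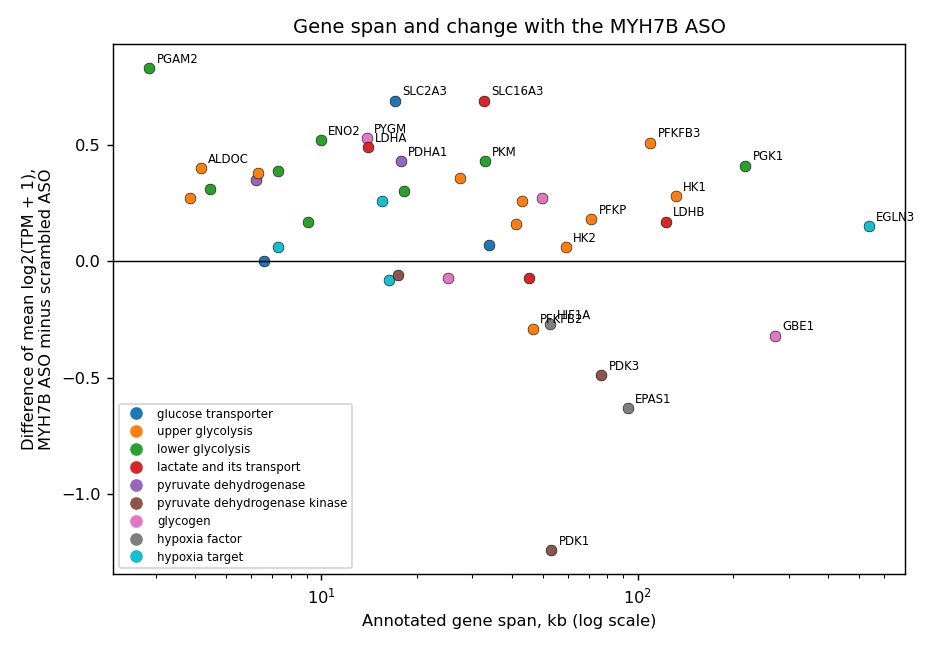
Difference of mean log2(TPM + 1), MYH7B ASO minus scrambled ASO, against the annotated span of each of the 41 genes on a log axis, coloured by role. PDK1, PDK3 and EPAS1 lie lowest at spans of 53.3 to 93.04 kb, and no gene shorter than 20 kb lies below -0.08.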

How the data were processed

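Poly-A RNA of 7 libraries was sequenced. The authors deposited TPM, which carries no depth, in a table of 60234 genes, and a table of 25374 genes with shrunken log2 fold changes, a mean normalized count (a signal), a test score and p-values. Its adjusted p-value is given for 15527 genes. Per the submitters' processing notes, DESeq2 and GRCh38.p13 were used. The quantifier is not given in the sources used here.

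From the deposited TPM, genes averaging 1 TPM or more over 6 libraries were tested on log2(TPM + 1), which understates changes of low genes, with limma 3.58.1 (lmFit, eBayes with trend) in R 4.3.3, 2-sided, Benjamini-Hochberg adjusted over all genes, called under 0.05. Ratios were compared by 2-sided exact permutation in scipy 1.17.1. The column of MYH7B ASO replicate 1 was matched to sorted identifiers and used only in an alternative. The fit was tested on simulated data. Members given in every library were those called, those not overlapping with a log2 difference of at least 0.5, and some abundant enzymes and near misses added after their values were seen. Of other pathway genes, those called were named. Members and lists were chosen with earlier results of these data known. Gene positions are from GENCODE 29. Alternatives covered pseudocounts, filters, rescaling, trend, replicate blocks, a seventh library and leaving out libraries.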

Additional observations from a re-analysis of the deposited data

Results flagged for a closer look

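In the MYH7B ASO group of 4 libraries, counting the reordered column of replicate 1, each of the 41 members and MYH7B was searched for a single value set apart from the rest. This was so for 3 of these 42 genes, where chance gives about 1 in 20. In each the library was replicate 1. ALDOC was at 204 TPM in it, against 284 to 301 TPM in replicates 2 to 4. EGLN3 was at 57.3 TPM, against 101 to 105.5 TPM. EPAS1 was at 37.1 TPM, against 8.99 to 10.7 TPM.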

How the results depend on the processing

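Among 712 recomputed values for MYH7B and the 41 members, 664 kept direction and side of the threshold. Of the rest, 30 changed sign, 3 gained a call and 15 lost one. All 15 lost calls were of PGAM2 or MYH7B, which were called in the main fit. The other members started uncalled, most far from the threshold, so the total says little about the called genes. The number of members called was 2 with a pseudocount of 0.1 or a minimum mean of 5 TPM, 0 with no filter on low values, with no intensity trend and under either replicate block, and 0 to 1 when a library was left out. Over all genes the count was 40 with no filter, 150 with no trend, 170 with 7 libraries and 53 to 149 when any of the 6 libraries was left out. Median-ratio rescaling gave 58 higher and 213 lower calls, and quantile normalization 55 and 202, against 29 and 236. Under a replicate block, numbered by title (deviations of same-numbered libraries correlated at 0.0759 and 0.11) or by description (-0.0729 and -0.0387), no gene was called by limma, and 1718 and 1096 genes had an unadjusted p under 0.05. Only 2 numbers are shared by the groups and no label pairs them. PGAM2 was then 0.90 and 0.77 (limma adjusted p = 0.381 and 0.720).

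Differences near 0 changed sign. SLC2A4 was 0.06 with median-ratio rescaling, 0.09 with quantile normalization, 0.02 without mitochondrial genes and 0.04 under the title block. PDK2 was 0.01 with median-ratio rescaling and with 7 libraries, and 0.04 under the description block. Under the title block HK2 was -0.02, GYS1 0.03, VEGFA 0.03 and CA9 -0.12, and under the description block SLC2A1 was -0.12 and HK2 -0.04. With 7 libraries SLC2A1 was -0.22, HK2 -0.26, PFKP -0.06, ENO3 -0.04 and EGLN3 -0.06. When a library was left out, the ranges were -0.19 to 0.14 for SLC2A4, -0.06 to 0.25 for HK2, -0.20 to 0.34 for CA9, -0.06 to 0.18 for SLC2A1, -0.17 to 0.03 for GYS1, -0.26 to 0.04 for VEGFA, -0.13 to 0.00 for PDK2 and -0.14 to 0.00 for SLC16A1. Ratios that changed sign were PFKM to PFKP (0.10 with 7 libraries, -0.18 to 0.12 without a library), ALDOC to ALDOA (-0.07 with quantile normalization, -0.06 under the title block, -0.03 to 0.07 without a library), SLC2A4 to SLC2A1 (-0.22 to 0.03 without a library), and ENO2 to ENO1 (-0.02) and PYGB to PYGM (0.07) with 7 libraries. The causes were not tested. With depth unknown, low members such as CA9, PFKFB2 and PDK3 have no counting interval.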
